A study of Mus musculus with 6 samples.

Results

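The genes described here are 42 genes of the lysosome and of autophagy, out of 38803 genes in the count table. They were taken by gene name, all 42 were found, and all 6 libraries were used, with serum-starved cells set against serum-fed cells of the same passage. All groups are cultures of 1 mouse cell line, 661W, which grows without limit, was started from a tumour that SV40 T antigen had caused in the eye of a transgenic animal, and is used as a model of cone photoreceptors. Serum-starved cells were grown for 48 h with 10% fetal calf serum (FCS) and then for 72 h in medium with 0% FCS, and serum-fed cells were grown for the same 48 h and then for 72 h in fresh medium with 10% FCS. Passages 24, 26 and 27 each gave 1 serum-starved and 1 serum-fed library, n = 3 per condition, from polyA RNA read as single 75 bp reads. The label of a cone cell was checked against 12 photoreceptor markers. The cone arrestin gene Arr3 had no count in any library, the cone opsin gene Opn1sw was at 0.321, 0.585 and 0.528 CPM (counts scaled to a library total of 1000000) in serum-starved cells and at 0.167, 0.295 and 0.485 CPM in serum-fed cells, and only Rom1, a disc membrane protein, passed 5 CPM in every library. The cone transducin gene Gnat2, which the paper lists as expressed, was at 0.848, 0.767 and 0.872 CPM in serum-starved cells and at 0.848, 1.97 and 0.930 CPM in serum-fed cells. Arr3 and Opn1sw are therefore at or near 0 and Gnat2 is low, and the cells are called 661W cells below.

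Lysosomes break down proteins, glycans and lipids with acid hydrolases, which are delivered as precursors through the secretory pathway. Their limiting membrane carries heavily glycosylated proteins and transporters that export the products, and a proton pump that keeps the lumen acidic. Autophagy wraps cytoplasm in a double membrane, whose growth uses small ubiquitin-like ATG8 proteins, and delivers it to the lysosome. When nutrients are scarce, the kinase complex mTORC1 leaves the lysosomal surface, and the transcription factors TFEB, TFE3 and MITF enter the nucleus, where they bind E-box sequences near many lysosomal genes. In photoreceptors and in the neighbouring pigment epithelium, this system turns over organelles and phagocytosed outer segments.

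Libraries held 71970076 to 87178722 counts, so that 3 counts, the upper limit that a count of 0 allows, correspond to 0.0344 to 0.0417 CPM. This limit covers counting error only. Libraries did not separate by condition alone: on the first principal component (62.6% of the variance of log2 CPM), serum-starved cells of passages 24, 26 and 27 lay at 28.0, −44.5 and −50.7, and serum-fed cells of these passages lay at 62.5, 23.0 and −18.3. Differences were therefore read within passages, and values without passage 24 are given where they change a call. The passages are the only replicates, and p-values rest on the spread between these 3 pairs. In edgeR the spread of each gene is also drawn toward that of other genes, with 5.53 prior degrees of freedom. Since RNA was taken from whole cultures, fewer cells of a type and less RNA per cell cannot be told apart.

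Without serum, 661W cells held more RNA of a group of lysosomal genes of several kinds. Of the 7 genes of autophagy initiation and conjugation 0 passed, which is close to the share of all genes tested given below. The difference between lysosomal and autophagy genes was not tested. Of the 41 members with enough counts for the test, 7 rose in serum-starved cells and 0 fell at an adjusted p under 0.05 (edgeR's quasi-likelihood test with the passage as a block, adjusted over all 16168 genes tested by the Benjamini-Hochberg method). Over all genes tested, 3.48% rose and 1.60% fell. The 7 were Mcoln1, Ctsd, Ctsf, Gaa, Hexa, Npc2 and Gabarapl1, and their log2 fold changes, here always serum-starved over serum-fed, lay between 0.64 and 0.98. Before adjustment edgeR gave 17 of the 41 members as higher and 1, Atg7, as lower with p under 0.05. Over all 16168 genes tested these counts were 2122 and 1800, which also stand beside the edgeR counts before adjustment in the groups and lists below. DESeq2 and limma-voom with the passage in the model also called 0 members lower. The median log2 fold change was 0.32 over the 41 members, 0.39 over the 26 lysosomal ones and 0.19 over the 12 autophagy ones, against −0.0011 over all genes tested.

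The direction was shared by more members than passed. Of the 41, 24 were higher in serum-starved cells in each of the 3 passages, against 27.6% of all genes tested, and 2 (Atg5 and Atg7) were lower in each, against 19.3% of all genes tested. In 13 of the 41 members the 3 serum-starved libraries all lay above the 3 serum-fed ones, against 7.94% of all genes tested. The 27 lysosomal members together took 14994, 15960.0 and 14048 CPM in serum-starved cells of passages 24, 26 and 27, and 13350.0, 10417 and 10384 CPM in serum-fed cells, so that the sums did not overlap. Lamp1, Ctsd and Psap had the highest CPM among them and weigh most in these sums. For the 12 autophagy members the sums were 2215, 1965 and 1985 CPM in serum-starved cells against 1832, 1812 and 1916 CPM in serum-fed cells. These sums did not overlap either, and their smallest gap was in passage 27. The median difference of the members, on the log2(CPM + 0.5) scale, was 0.18 in passage 24, 0.54 in passage 26 and 0.28 in passage 27. In the same order it was 0.15, 0.61 and 0.40 for the lysosomal members and 0.24, 0.43 and 0.04 for the autophagy members. The lysosomal median was thus the higher one in passages 26 and 27 but not in passage 24.

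**Figure D1:**
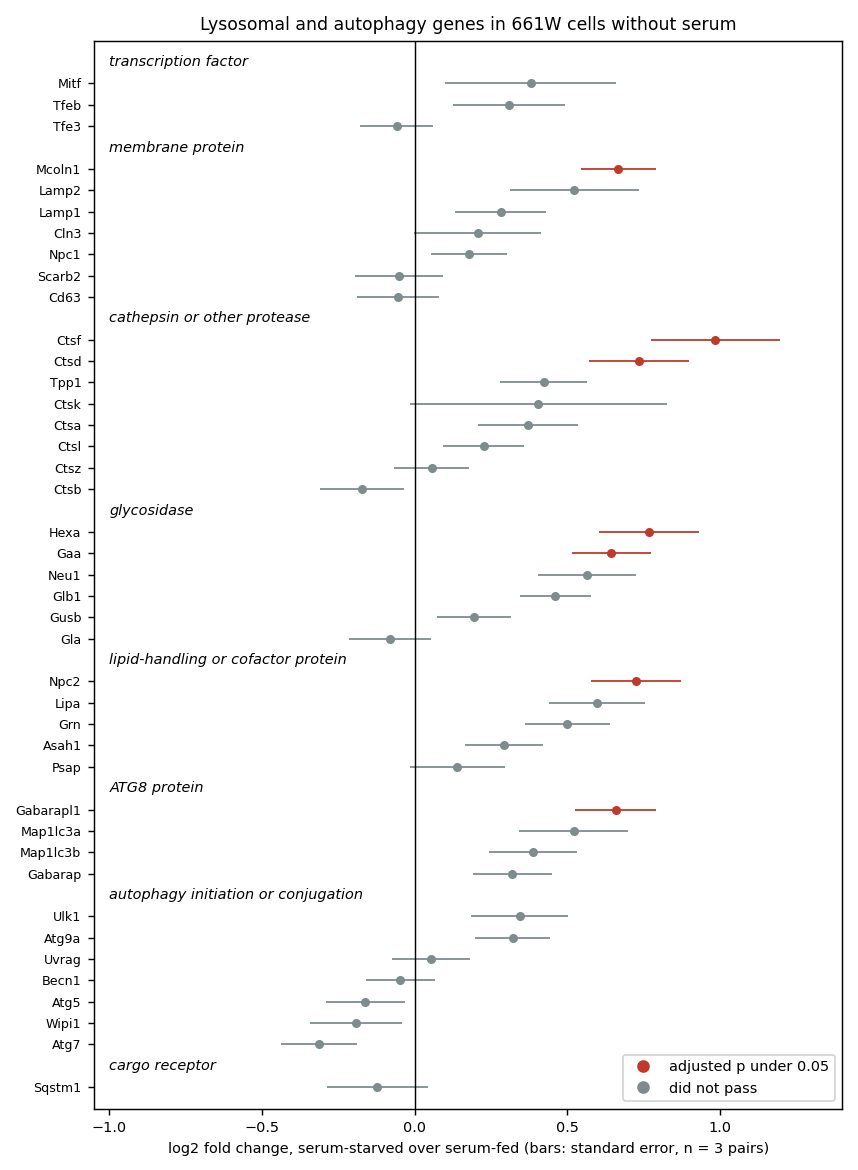
Log2 fold change, serum-starved over serum-fed, of each of the 41 members tested (x axis), grouped by role from top to bottom. Points are edgeR estimates and bars their standard errors from 3 passages; the 7 red genes, between 0.64 and 0.98, passed an adjusted p under 0.05, and the lowest gene, Atg7, was at −0.31.

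The calls depend on the pairing and on passages 26 and 27. Without the passage in the model edgeR called 0 members higher (8 with p under 0.05 before adjustment), and it called 0 without the libraries of passage 26 and 0 without those of passage 27 (11 and 13 with p under 0.05 before adjustment), while without passage 24 it called 8, with Lamp2 and Neu1 added and Ctsd lost. In the same order, these fits called 4 of 16168, 328 of 15754, 271 of 15778 and 863 of 15762 genes higher over all genes tested. For the counts before adjustment in these fits, the share of all genes is not given, and they are not read as support. At the stricter level of 0.01 that the study used for all genes, 0 of the 7 passed by edgeR, while all 7 passed by DESeq2 with the passage in the model (adjusted p between 0.000439 and 0.0015). At 0.01 edgeR called 118 of all 16168 genes higher. The number for DESeq2 at this level is not given here, so that its 7 cannot be set against a share of all genes. At 0.05 the DESeq2 fit with the passage called 11 members higher, the 7 and Glb1, Neu1, Grn and Lipa, beside 1112 of 16168 genes higher and 899 lower.

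The E-box core CACGTG, the sequence that TFEB, TFE3 and MITF recognise, was looked for near the starts of the members. RefSeq promoter windows on GRCm38.p6, 250 bases before to 50 after an annotated start, were at hand for 37 of the 42 members (6 of them with more than 1 start). The core was found in 12 of these 37 genes (32.4%), against 8.09% of all 27025 genes with a window and 11.4% of the 10881 of them that were tested here. The longer palindrome TCACGTGA, which contains the core, was found in 5 of the 37 (13.5%), against 1.12% of all and 2.12% of the tested genes. Both motifs read the same on both strands. The 7 genes that rose all had a window: Ctsd, Mcoln1, Gaa and Ctsf held the core, and Npc2, Hexa and Gabarapl1 held none in this window. Of the 30 other members with a window, 8 held it. Such a match is a description of the letters, not of binding.

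The 250 bases before the start are shown for the 4 genes that rose and hold the core, and for Lamp1 and Gla, which hold at least as many copies and did not pass the test. Cores are in capitals, and each sequence runs 5′ to 3′ on the strand of its gene. The stretches are chr8:3500269-3500518 (plus strand), chr7:142387828-142388077 (minus), chr11:119267713-119267962 (plus), chr19:4854915-4855164 (plus), chr8:13158911-13159160 (plus) and chrX:134601006-134601255 (minus).
Mcoln1: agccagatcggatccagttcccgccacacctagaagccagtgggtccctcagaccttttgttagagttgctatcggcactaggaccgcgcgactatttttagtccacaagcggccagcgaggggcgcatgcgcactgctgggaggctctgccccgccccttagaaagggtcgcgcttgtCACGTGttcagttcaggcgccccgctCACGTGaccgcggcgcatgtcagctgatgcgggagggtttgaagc
Ctsd: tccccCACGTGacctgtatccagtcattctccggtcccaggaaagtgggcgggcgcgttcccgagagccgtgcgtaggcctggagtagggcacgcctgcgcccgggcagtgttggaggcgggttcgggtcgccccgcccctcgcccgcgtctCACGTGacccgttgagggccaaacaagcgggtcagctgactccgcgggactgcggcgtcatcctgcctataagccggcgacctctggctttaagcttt
Gaa: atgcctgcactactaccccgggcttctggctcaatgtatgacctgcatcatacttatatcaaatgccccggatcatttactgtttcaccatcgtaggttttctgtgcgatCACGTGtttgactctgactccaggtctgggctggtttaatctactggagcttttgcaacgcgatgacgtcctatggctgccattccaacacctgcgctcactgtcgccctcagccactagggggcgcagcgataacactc
Ctsf: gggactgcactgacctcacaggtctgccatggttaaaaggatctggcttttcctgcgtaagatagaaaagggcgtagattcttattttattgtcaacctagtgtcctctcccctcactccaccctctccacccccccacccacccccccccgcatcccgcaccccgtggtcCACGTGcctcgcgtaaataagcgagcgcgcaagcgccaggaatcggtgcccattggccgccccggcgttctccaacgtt
Lamp1: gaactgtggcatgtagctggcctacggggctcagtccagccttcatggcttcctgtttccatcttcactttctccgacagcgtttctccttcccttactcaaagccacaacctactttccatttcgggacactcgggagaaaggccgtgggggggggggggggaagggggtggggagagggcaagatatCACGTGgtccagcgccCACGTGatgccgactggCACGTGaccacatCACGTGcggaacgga
Gla: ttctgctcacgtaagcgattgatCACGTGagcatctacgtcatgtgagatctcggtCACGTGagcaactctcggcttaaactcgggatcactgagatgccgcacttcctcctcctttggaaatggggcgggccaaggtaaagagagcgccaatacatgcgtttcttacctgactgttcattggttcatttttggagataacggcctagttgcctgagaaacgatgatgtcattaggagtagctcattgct
In Mcoln1 the cores begin 71 and 45 bases before the start, and the nearer one lies within the longer palindrome. Ctsd has cores 245 and 98 bases before the start, of which again the nearer one lies within the palindrome. Gaa and Ctsf have 1 core each, 140 and 79 bases before the start. Lamp1 has 4, between 61 and 15 bases before the start, none within the palindrome, and Gla has 2, at 227 and 194 bases, both within it. The log2 fold changes of these 6 genes were 0.67, 0.73, 0.64, 0.98, 0.28 and −0.08. Ctsa and Cln3, not shown, hold 2 cores each and had log2 fold changes of 0.37 and 0.21. Since the 6 were picked by call and copy number, their order says nothing of copies and change, and that link was not tested.

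**Figure D2:**
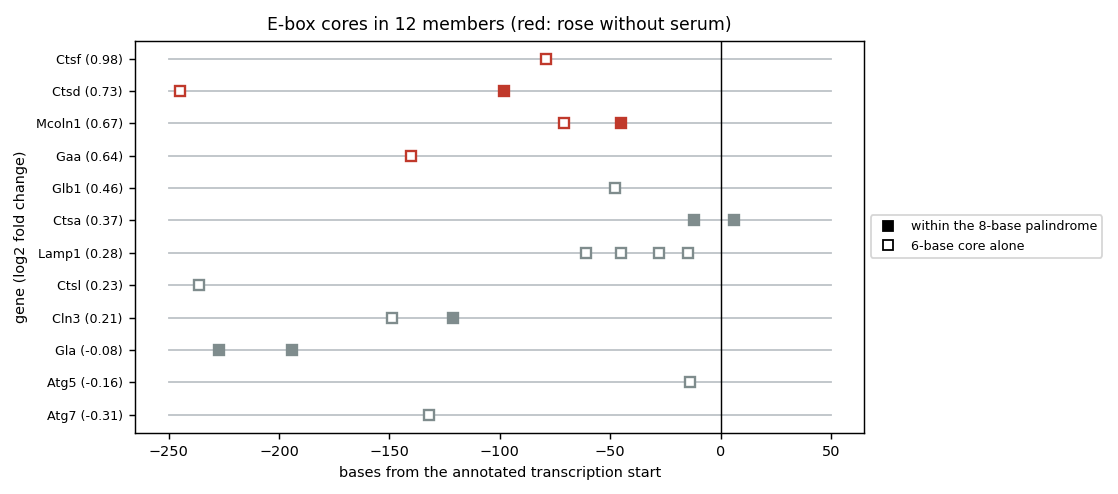
Distance of each CACGTG core from the annotated start (x axis, bases, start at 0) in the 12 members that hold one, ordered from top to bottom by log2 fold change, serum-starved over serum-fed, given beside each name. Filled squares lie within TCACGTGA; the 4 red genes rose, and the 8 grey ones, Lamp1 with 4 cores and Gla with 2 among them, did not pass the test.

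Of the 3 transcription factors 0 passed the test by edgeR (0 with p under 0.05 before adjustment) or by DESeq2. Tfeb, the master regulator of lysosomal genes, was at 13.2, 16.8 and 20.8 CPM in serum-starved cells of passages 24, 26 and 27, against 11.8, 10.1 and 17.9 CPM in serum-fed cells. It was higher in serum-starved cells in each passage, but the groups overlapped, and the log2 fold change of 0.31 (standard error, SE, 0.18, 95% confidence interval −0.12 to 0.74) had an adjusted p of 0.351 by edgeR. Tfe3, its relative that acts on the same sites, was at 113, 103 and 125 CPM in serum-starved cells against 99.3, 109.8 and 134 CPM in serum-fed cells (log2 fold change −0.06, interval −0.34 to 0.22). Mitf, best known from pigment cells and the pigment epithelium, was at 2.86, 6.49 and 9.42 CPM in serum-starved cells against 3.25, 4.87 and 4.53 CPM in serum-fed cells (log2 fold change 0.38, interval −0.27 to 1.03). In serum-starved cells, passage 24 lay below its serum-fed partner and passage 27 above all other libraries. Per kilobase of merged exon, Tfe3 was the most abundant of the 3, at 12.3 CPM per kb in serum-starved and 12.4 CPM per kb in serum-fed cells, against 2.99 and 2.35 for Tfeb and 1.01 and 0.680 for Mitf. These factors act mainly through their place in the cell, which RNA levels do not show.

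Among 7 membrane proteins, 1 rose. Mcoln1 encodes TRPML1, the channel that lets calcium out of the lysosome (chr8:3500457-3515232, plus strand, GRCm38). It was at 117, 144 and 108 CPM in serum-starved cells of passages 24, 26 and 27, against 80.9, 77.0 and 64.3 CPM in serum-fed cells. All serum-starved values lay above all serum-fed ones, and the log2 fold change of 0.67 (SE 0.12, adjusted p = 0.0313 by edgeR) was the one with the smallest p among the members.

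Lamp2, which encodes a main glycoprotein of the lysosomal membrane and, as one isoform, the receptor of chaperone-mediated autophagy, behaved differently between passages. It was at 663, 1264 and 1163 CPM in serum-starved cells of passages 24, 26 and 27, against 689.9, 670.3 and 636 CPM in serum-fed cells. The serum-fed libraries lay close together, and 2 of the 3 serum-starved ones lay far above them while passage 24 did not. Over all passages the log2 fold change was 0.52 (SE 0.21, adjusted p = 0.183), and without passage 24 it was 0.85 (adjusted p = 0.032), both by edgeR.

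Lamp1, the other abundant membrane glycoprotein, was at 2663, 2826 and 1966 CPM in serum-starved cells against 2381, 2008 and 1534 CPM in serum-fed cells. It was higher in each passage, with groups that overlapped (log2 fold change 0.28, 95% interval −0.06 to 0.63, adjusted p = 0.296 by edgeR). Npc1, the cholesterol exporter of the membrane, Cln3, a membrane protein mutated in juvenile Batten disease, Cd63, a tetraspanin of late endosomes, and Scarb2, which carries glucocerebrosidase to the lysosome, had log2 fold changes from −0.06 to 0.21. The interval of Cd63 was −0.37 to 0.26. A processed pseudogene, Cd63-ps, has a row of its own with 2114 counts over the 6 libraries, against 353302 for Cd63. How reads that match both were handled is not given in the sources used here.

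**Figure D3:**
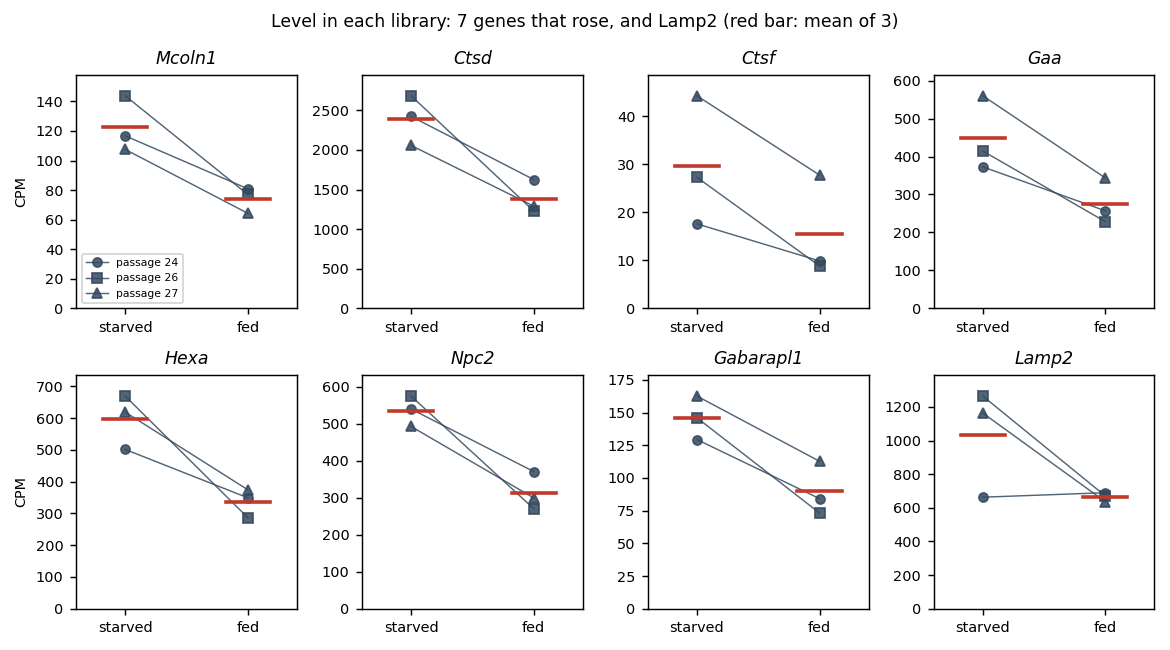
Level in CPM (y axes, from 0) in serum-starved (left) and serum-fed (right) libraries, with lines joining the libraries of 1 passage and red bars at the mean of 3. In the 7 genes that rose every line falls from starved to fed, and the passage 24 line of Lamp2, 663 CPM starved and 689.9 CPM fed, does not.

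Of the 9 proteases, 2 rose, 6 did not pass and 1 had too few counts. Ctsd encodes cathepsin D, the main aspartic protease of lysosomes (chr7:142375911-142388038, minus strand). It was at 2423, 2683 and 2056 CPM in serum-starved cells of passages 24, 26 and 27 and at 1627, 1229.6 and 1292 CPM in serum-fed cells. The groups did not overlap, and the means of 2387 ± 315 and 1383 ± 214 CPM (SD, n = 3 each) gave a log2 fold change of 0.73 (SE 0.16, adjusted p = 0.0486 by edgeR), just inside the threshold. Besides the settings named above, the call was lost with RLE size factors, with the stricter count filter and without passage 24 (adjusted p = 0.0506, 0.0529 and 0.0535). Another gene model, Gm49369, covers 34.4% of its exonic bases on the same strand and has no row in the count table.

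Ctsf encodes cathepsin F, a cysteine protease (chr19:4855130-4860918, plus strand). It was at 17.6, 27.3 and 44.3 CPM in serum-starved cells against 9.89, 8.85 and 27.8 CPM in serum-fed cells. Each serum-starved library lay above its partner, but passages differed so much that the groups overlapped. The log2 fold change of 0.98 (SE 0.21, adjusted p = 0.0442 by edgeR) was the highest of the members that were tested.

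Tpp1, a serine protease whose loss causes late-infantile Batten disease, was at 354, 393 and 304 CPM in serum-starved cells and at 296, 228 and 232 CPM in serum-fed cells. Its groups did not overlap either, but the log2 fold change of 0.42 (SE 0.14) had an adjusted p of 0.13. Ctsa, the protective protein that stabilises neuraminidase and beta-galactosidase, was almost level in passage 24, with 609.8 CPM in serum-starved and 602 CPM in serum-fed cells. In passages 26 and 27 it was at 561 and 468 CPM in serum-starved cells and at 353 and 311 CPM in serum-fed cells (log2 fold change over all passages 0.37, 95% interval −0.01 to 0.75). Ctsl, Ctsz and Ctsb, cysteine cathepsins with broad substrate ranges, had log2 fold changes of 0.23, 0.05 and −0.17, and the interval of Ctsb was −0.49 to 0.15. Ctsk, the collagen-degrading cathepsin of osteoclasts, was at 0.231 to 0.493 CPM in serum-starved and 0.236 to 0.320 CPM in serum-fed cells. Ctss, the cathepsin of antigen-presenting cells, had 1 count in serum-starved cells of passage 24 and none in the other libraries, and it was the member not tested.

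Of the 6 glycosidases, 2 rose. Hexa encodes the alpha subunit of beta-hexosaminidase, which removes a sugar from the ganglioside that accumulates in Tay-Sachs disease (chr9:59539540-59565109, plus strand). It was at 502, 669.6 and 619 CPM in serum-starved cells of passages 24, 26 and 27, against 349, 287 and 375 CPM in serum-fed cells, and the lowest serum-starved value lay well above the highest serum-fed one (log2 fold change 0.77, SE 0.16, adjusted p = 0.0441 by edgeR). Hexa was also the only member that DESeq2 called without the passage in the model.

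Gaa, the acid alpha-glucosidase that breaks down glycogen and is missing in Pompe disease (chr11:119267887-119285454, plus strand), was at 373, 414 and 559.8 CPM in serum-starved cells against 257, 228 and 343 CPM in serum-fed cells. Passage 27 was the highest in both conditions, and the groups did not overlap (log2 fold change 0.64, SE 0.13, adjusted p = 0.0378 by edgeR).

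Glb1, the lysosomal beta-galactosidase, came close, at 155, 195 and 206 CPM in serum-starved cells against 104, 132 and 155 CPM in serum-fed cells. It was higher by a like amount in each passage (0.58, 0.56 and 0.41 on the log2(CPM + 0.5) scale), and its log2 fold change was 0.46 (adjusted p = 0.0644 by edgeR). Of the exonic bases of Glb1, 5.49% are shared on the same strand with Tmppe, which has a row of its own. Neu1, the sialidase that works in a complex with the products of Ctsa and Glb1, was at 94.8, 94.0 and 50.2 CPM in serum-starved cells against 83.6, 53.3 and 27.6 CPM in serum-fed cells (log2 fold change 0.56, adjusted p = 0.0885), and passage 24 showed the smallest difference. Gusb, the beta-glucuronidase, was slightly higher in each passage (log2 fold change 0.19, 95% interval −0.09 to 0.48). Gla, the alpha-galactosidase missing in Fabry disease, had a log2 fold change of −0.08 (interval −0.39 to 0.23).

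Of the 5 proteins that handle lipids or serve as cofactors, 1 rose and all 5 had positive log2 fold changes. Npc2 encodes the soluble protein that hands cholesterol to NPC1 (chr12:84754562-84773152, minus strand). It was at 539.6, 575 and 493 CPM in serum-starved cells of passages 24, 26 and 27, against 371, 271 and 299.7 CPM in serum-fed cells. Its groups did not overlap (log2 fold change 0.72, SE 0.15, adjusted p = 0.0389 by edgeR), while Npc1, its partner in the membrane, was at 82.0, 88.3 and 76.9 CPM in serum-starved and 78.9, 65.0 and 66.7 CPM in serum-fed cells (0.18, 95% interval −0.11 to 0.47). The difference between the 2 changes was not tested.

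Lipa, the acid lipase for cholesteryl esters and triglycerides, was at 94.1, 133 and 166 CPM in serum-starved cells against 68.2, 62.5 and 125 CPM in serum-fed cells (log2 fold change 0.60, adjusted p = 0.0723 by edgeR). Each passage was higher without serum, and the groups overlapped. Grn, the progranulin gene, was at 938, 918 and 929.8 CPM in serum-starved cells and at 739, 567 and 602 CPM in serum-fed cells, a tight group above a wider one (log2 fold change 0.50, adjusted p = 0.0843). Asah1, the acid ceramidase, was at 437, 531 and 432 CPM in serum-starved cells against 375, 373 and 347 CPM in serum-fed cells, without overlap (log2 fold change 0.29, 95% interval −0.01 to 0.59). Psap, the precursor of the saposins that present lipids to hydrolases, had a log2 fold change of 0.14. It was at 1782, 1608 and 1677 CPM in serum-starved cells against 1888, 1214 and 1396 CPM in serum-fed cells, lower than its partner in passage 24 and higher in the other passages.

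Of the 4 ATG8 genes among the members, 1 rose and all 4 were higher in serum-starved cells in each passage. Another ATG8 gene, Gabarapl2, stands in the wider list of other autophagy machinery, where 0 of 32 genes passed by edgeR. Gabarapl1 encodes a GABARAP-type ATG8 protein (chr6:129533160-129542346, plus strand) and was at 129, 146 and 163 CPM in serum-starved cells of passages 24, 26 and 27, against 84.2, 73.2 and 113 CPM in serum-fed cells. The groups did not overlap, and the log2 fold change was 0.66 (SE 0.13, adjusted p = 0.0376 by edgeR).

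Map1lc3b, the LC3 form most used as a marker of autophagosomes, was at 171, 171 and 148 CPM in serum-starved cells and at 143, 97.7 and 123 CPM in serum-fed cells. The groups did not overlap, but the log2 fold change of 0.39 (95% interval 0.05 to 0.73) had an adjusted p of 0.159. Map1lc3a was at 63.7, 84.1 and 103 CPM in serum-starved cells against 36.3, 45.6 and 101 CPM in serum-fed cells, with almost no difference in passage 27 (log2 fold change 0.52, adjusted p = 0.133 by edgeR). Gabarap was at 469.6, 407 and 395 CPM in serum-starved cells against 401, 281 and 307 CPM in serum-fed cells (log2 fold change 0.32, adjusted p = 0.181 by edgeR). Per kilobase, Gabarap was the most abundant of these 4 members, at 229.9 CPM per kb in serum-starved and 179 CPM per kb in serum-fed cells, against 72.5 and 44.7 for Gabarapl1.

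The 7 genes of autophagy initiation and conjugation did not move together: 3 had positive and 4 negative log2 fold changes, and 0 passed by edgeR, by DESeq2 or by limma-voom with the passage in the model (1 higher and 1 lower with p under 0.05 before adjustment). Atg9a, the scramblase of the growing membrane, was at 56.4, 74.3 and 73.2 CPM in serum-starved cells against 43.7, 50.7 and 63.3 CPM in serum-fed cells (log2 fold change 0.32, adjusted p = 0.169 by edgeR). It too shares its exons, 31.8% of the bases, with another model on the same strand, Gm29253, which has no row in the table. Atg7, the enzyme that activates ATG8 proteins and ATG12, was at 51.0, 30.7 and 24.2 CPM in serum-starved cells against 62.8, 36.1 and 28.5 CPM in serum-fed cells. It was lower by a like amount in each passage (log2 fold change −0.31, SE 0.12, adjusted p = 0.175 by edgeR), and its levels differed more between passages than between conditions.

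Ulk1, the kinase that starts autophagy, was at 50.01, 88.0 and 86.2 CPM in serum-starved cells against 39.5, 50.2 and 83.2 CPM in serum-fed cells (log2 fold change 0.34, 95% interval −0.03 to 0.71). Becn1 and Uvrag, subunits of the lipid kinase complex, were close to level, with log2 fold changes of −0.05 (interval −0.31 to 0.22) and 0.05 (interval −0.25 to 0.35). Atg5, part of the conjugation complex, and Wipi1, which reads the lipid signal, were at −0.16 and −0.19. The cargo receptor Sqstm1, also known as p62, was at 953, 714 and 754 CPM in serum-starved cells against 765, 926 and 831 CPM in serum-fed cells, higher without serum in passage 24 and lower in the other passages (log2 fold change −0.12, interval −0.51 to 0.27).

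The wider pathway was read from 7 lists of 163 genes that are not members, of which 160 were tested. Of these, 8 rose and 1 fell, 5.00% and 0.625% of those tested, beside 3.48% and 1.60% of all genes tested, and the median log2 fold change was 0.18. The 30 other hydrolases had the highest median of the lists, 0.41, with 4 that rose and 0 that fell by edgeR (0 lower with p under 0.05 before adjustment), and 24 of them were higher in each passage. DESeq2 with the passage called 11 of the 30 higher and 0 lower, and edgeR without passage 24 called 7 higher and 0 lower. Of all genes, these fits called 1112 of 16168 and 863 of 15762 higher, and 899 and 493 lower. Arsa, which desulfates sulfatide, was at 104, 139 and 144 CPM in serum-starved cells against 61.7, 60.2 and 86.1 CPM in serum-fed cells (log2 fold change 0.85, SE 0.14, adjusted p = 0.0186 by edgeR). Man2b1 and Manba, the alpha- and beta-mannosidases, and Ctsc, the cathepsin that activates serine proteases, rose with log2 fold changes of 0.70, 0.60 and 0.72.

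Of 21 tested membrane proteins and transporters, 2 rose and 0 fell by edgeR (2 lower with p under 0.05 before adjustment, and Cd68 lower by DESeq2), with a median log2 fold change of 0.35. Ctns, the cystine exporter, was at 48.2, 66.5 and 41.6 CPM in serum-starved cells against 33.6, 26.6 and 25.0 CPM in serum-fed cells (log2 fold change 0.80, adjusted p = 0.0463 by edgeR). Tmem55b, a phosphatidylinositol phosphatase that helps to position lysosomes, was at 111, 107 and 83.2 CPM in serum-starved cells against 75.3, 65.8 and 56.1 CPM in serum-fed cells (0.55, adjusted p = 0.0397). Of the 21 genes of enzyme sorting, Sort1, a receptor that carries enzymes from the Golgi, was the only one that rose by edgeR, at 48.7, 140.2 and 152 CPM in serum-starved cells against 27.3, 25.4 and 54.4 CPM in serum-fed cells (log2 fold change 1.54, SE 0.28, adjusted p = 0.0288 by edgeR). The sorting list had a median of 0.09.

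The proton pump and the autophagy machinery had smaller medians than the other hydrolases. Of 16 subunits of the V-ATPase, 0 passed by edgeR in either direction (4 higher and 0 lower with p under 0.05 before adjustment), DESeq2 called 1 higher, and the median log2 fold change was 0.17. Of the 16, 11 were higher without serum in each passage, against 27.6% of all genes tested. Against the mean of passages 26 and 27, 11 were higher and 0 lower in passage 24 (edgeR, adjusted p under 0.05), beside 11.1% and 10.2% of all genes tested. Of 32 other autophagy genes 0 passed (3 higher and 0 lower with p under 0.05 before adjustment, 1 higher by DESeq2), with a median of 0.03. Among 12 other cargo receptors the mitophagy receptor Bnip3 fell, at 11.9, 17.0 and 24.1 CPM in serum-starved cells against 21.3, 25.7 and 44.8 CPM in serum-fed cells (log2 fold change −0.83, SE 0.15, adjusted p = 0.029 by edgeR). The glycogen receptor Stbd1 was at 43.5, 35.1 and 37.3 CPM in serum-starved cells against 50.1, 87.2 and 96.3 CPM in serum-fed cells (log2 fold change −1.02, adjusted p = 0.0503 by edgeR), and the groups did not overlap. Stbd1 was called lower by DESeq2 and by limma-voom with the passage in the model, and by edgeR without passage 24.

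Of 28 genes of mTORC1 and nutrient sensing, 1 rose, with a list median of 0.21. This was Tfec, the remaining member of the family of TFEB, TFE3 and MITF, at a very low level of 0.244, 0.936 and 1.10 CPM in serum-starved cells against 0.0556, 0.147 and 0.0917 CPM in serum-fed cells, 209 counts in all. Its log2 fold change was 2.80 (SE 0.43, adjusted p = 0.0165 by edgeR). Without passage 24 the wider lists held 16 genes that rose and 3 that fell, without passage 26 they held 3 and 1, and without passage 27 they held 0 and 0. Among all genes these fits called 863, 328 and 271 higher and 493, 104 and 63 lower.

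**Figure D4:**
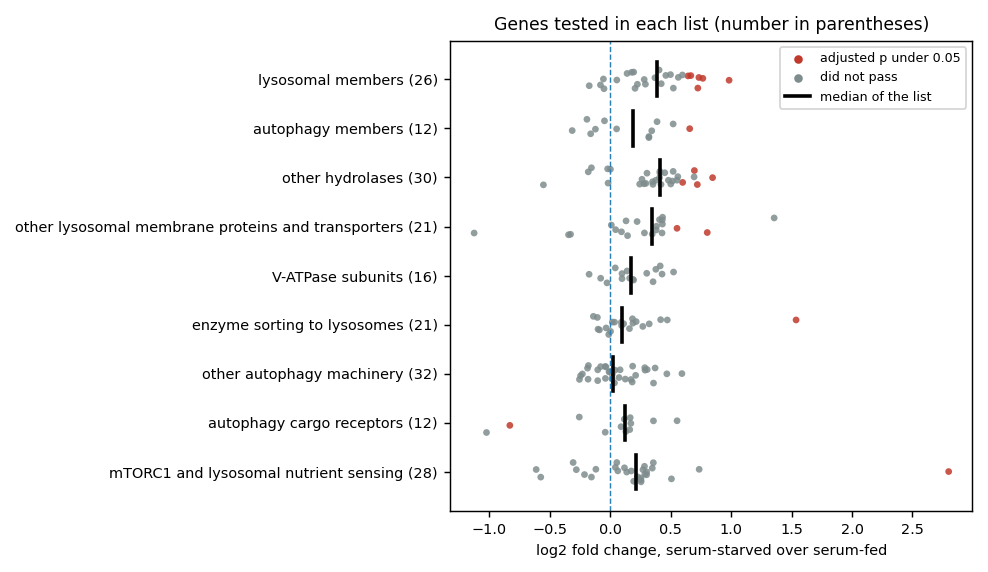
Log2 fold change, serum-starved over serum-fed (x axis), of each gene tested, by list (y axis, number tested in parentheses), with a black line at the median of each list and a dashed line at 0. Red points passed an adjusted p under 0.05; the medians are 0.39 for lysosomal members, 0.19 for autophagy members and 0.41 for other hydrolases, and 0.03 for other autophagy machinery.

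Several members also differed between passages, with the condition in the model. Between passage 24 and the mean of passages 26 and 27, 7 members were higher and 1 lower in passage 24 at an adjusted p under 0.05 (edgeR), beside 11.1% and 10.2% of all genes tested. Gla was the furthest apart, at 75.6 CPM on average in passage 24 and 36.5 CPM in passages 26 and 27 (log2 difference 1.16, adjusted p = 0.00424), and Atg7 followed at 56.9 and 29.9 CPM (1.03, adjusted p = 0.00473). Neu1, Ctsa, Ctsb, Uvrag and Ctsz were higher by 0.89, 0.66, 0.56, 0.49 and 0.45 on the log2 scale, and Ulk1 was lower by a log2 difference of −0.68. None of these 8 was among the 7 that rose without serum. Without passage 27 this comparison called 0 in either direction, and with library totals as the only scaling it called 4 higher and 3 lower. Marker lists of other cell types moved with the passage too. Of 7 macrophage markers tested, 4 were higher in passage 24 (Cx3cr1, Csf1r and Cd68, by log2 differences of 3.21, 2.32 and 1.71, and Cd14), all at low levels, Cd68 averaging 8.56 CPM in passage 24 and 2.49 CPM in passages 26 and 27. Of 6 skeletal muscle markers tested, 5 were lower in passage 24, with log2 differences of −3.33 for Myh3 and −3.13 for Myog, and of 7 fibroblast markers 2 were higher and 2 lower. Their part in the passage differences of the members was not tested. Passage 24 is 1 passage with 2 libraries, and anything else that set it apart cannot be told apart from the passage.

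**Figure D5:**
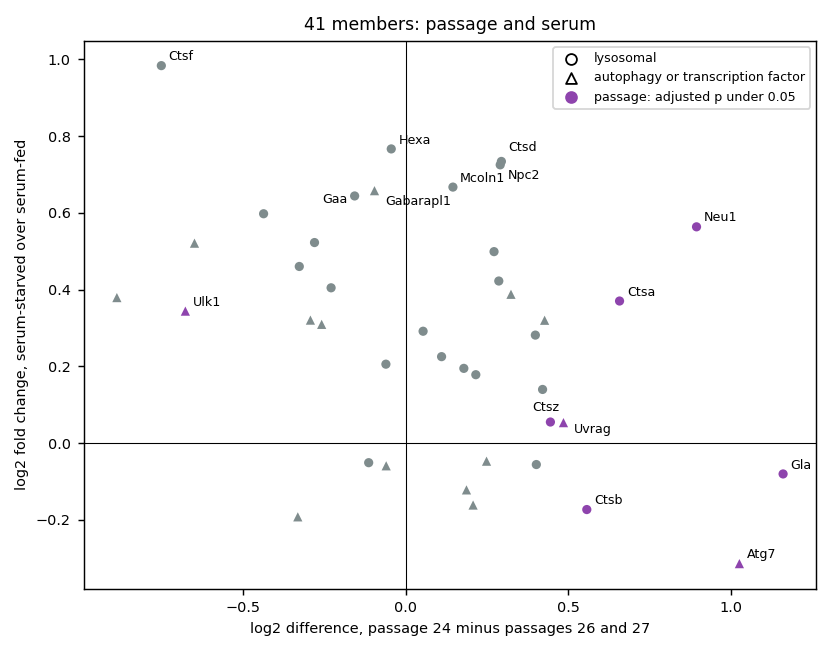
Log2 difference of passage 24 minus passages 26 and 27 (x axis) against log2 fold change, serum-starved over serum-fed (y axis), for the 41 members tested. Circles are lysosomal members and triangles the others, and the 8 purple genes passed the passage test; Gla, at 1.16 and −0.08, and Ctsf, at −0.75 and 0.98, mark the ends of the x axis among the labelled genes.

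The levels of the members spanned a wide range. Per kilobase of merged exon, Ctsd and Lamp1 stood highest, at 1016 and 929 CPM per kb in serum-starved and 588 and 738 CPM per kb in serum-fed cells, followed by Psap at 616 and 546. At the other end, Cln3 stood at 1.90 CPM per kb in serum-starved and 1.54 CPM per kb in serum-fed cells, and only Mitf, Ctsk and Ctss lay below it. Ctsd and Lamp1 changed places between the conditions.

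Genes that mark other cell types moved with the condition in part. Macrophages and osteoclasts are rich in lysosomal enzymes. Of 12 macrophage markers 7 were tested by edgeR, and the only one to pass, Cx3cr1, fell (0.642, 0.0650 and 0.0344 CPM in serum-starved cells against 2.17, 0.684 and 0.157 CPM in serum-fed cells), and the list summed to 4.52 to 8.03 CPM in serum-starved and 4.66 to 21.2 CPM in serum-fed cells. Adgre1 (listed as Emr1), Tyrobp and C1qa had no count in any library, and the 6 osteoclast markers together summed to 0.604 to 0.845 CPM in serum-starved and 0.288 to 0.625 CPM in serum-fed cells. Cd68 and Atp6v0d2 stand in a pathway list as well as in a marker list. Of 8 fibroblast markers 7 were tested and 5 rose, with sums of 5038, 6988 and 8253 CPM in serum-starved against 4991, 4565 and 4436 CPM in serum-fed cells. Of 7 skeletal muscle markers 6 were tested and 4 rose (Myh3, Actc1, Myog and Ckm), with sums of 35.9, 532 and 195 CPM in serum-starved against 46.4, 114 and 55.2 CPM in serum-fed cells. The fibroblast and muscle sums had their smallest gaps in passage 24, where the muscle sum was lower without serum. These gaps lean on single genes: in passage 24 Vim was at 2993 CPM in serum-starved and 4182 CPM in serum-fed cells, and Myod1 at 8.68 and 38.9 CPM. Of the markers tested, 5 of 7 for fibroblasts and 5 of 6 for muscle were higher without serum in passage 24. The part of these lists in the lysosomal result was not tested.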

How the data were processed

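PolyA RNA of 661W cells was sequenced in 6 libraries, 3 serum-starved and 3 serum-fed, grouped by the sample labels. Per the submitters' notes and the paper, STAR was the aligner (GRCm38, mm10), and HTSeq assigned reverse-stranded reads to genes in union mode, which leaves out reads shared by overlapping genes. The authors deposited raw counts, and program versions were not given in the sources used here. The authors' deposited DESeq2 comparison (base mean, log2 fold change, standard error, Wald statistic, p and adjusted p) was not used. Rows whose gene name had become a date, 27 in number with 0.223% to 0.301% of a library's counts, were dropped.

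The test was the quasi-likelihood one of edgeR, after TMM scaling and filterByExpr, and the passage was a block in the model (16168 genes tested, Benjamini-Hochberg adjustment, threshold 0.05). The passages are given by the labels, and after removal of condition means log2 CPM correlated within passages at 0.675, 0.273 and 0.605, against at most −0.147, 0.251 and 0.251 with other passages. Intervals are 95% from the edgeR standard error. Levels are CPM from library totals, and CPM per kb divides by the merged exon length in GENCODE M21, where all 42 members matched. The differences within passages used a pseudocount of 0.5 CPM. Promoters were RefSeq windows of GRCm38.p6.

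The members and the lists were chosen with earlier results of these data known. By rule, members past the threshold, the 3 transcription factors, the 4 ATG8 genes and up to 10 more with the smallest p are given by library, the other members by range or interval (some also by library where passages differ), and up to 4 genes of each wider list by smallest p. Alternatives were edgeR with no block, DESeq2 in both forms, limma-voom, RLE factors, library totals, no filter, 10 counts in every library, a threshold of 0.01 and leaving out each passage. Versions were R 4.3.3, edgeR 4.0.16, limma 3.58.1, DESeq2 1.42.0, Python 3.11.15, pandas 2.3.3, scipy 1.17.1 and matplotlib 3.10.9.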

Additional observations from a re-analysis of the deposited data

How the results depend on the processing

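The 7 members that rose, against 0 that fell, kept their direction under all 12 alternatives, with log2 fold changes between 0.54 and 1.17, but not their calls. Without the replicate block (the passage), edgeR called 0 members higher, and in the wider lists 0 higher and 0 lower instead of 8 and 1, and DESeq2 without it called 1 member and 4 wider genes higher. Over all 16168 genes, these fits called 4 and 281 higher and 0 and 48 lower. DESeq2 with the block called 11 members higher, 21 wider genes higher and 3 lower, and in passage 24 it called 4 members lower instead of 1. Its calls for serum over all 16168 genes were 1112 higher and 899 lower. With no filter there were 11 members higher, 19 wider genes higher and 3 lower, and 4 members lower in passage 24. The fit with no filter called 1106 of 24541 genes higher and 705 lower for serum. limma-voom called 2 wider genes lower. With library totals 4 members were higher and 3 lower in passage 24 instead of 7 and 1, and with 10 counts in every library 2 were lower. At an adjusted p under 0.01 by edgeR, 0 members and 0 wider genes were called higher, 0 wider genes lower, and in passage 24 there were 2 members higher and 0 lower. For serum, 118 of all 16168 genes were higher and 19 lower at that level. Leaving out 1 passage gave 0 to 8 members higher, 0 to 16 wider genes higher, 0 to 3 wider genes lower, 0 to 7 members higher in passage 24 and 0 to 4 lower. For serum, the fits without 1 passage called 271 to 863 of all genes higher and 63 to 493 lower. No member was called lower under any alternative. Of 492 further values for single members, 444 kept their side of the threshold, 37 lost a call, 11 gained one and 0 changed sign with a call in either fit. Some members that passed in neither fit did change sign. Gla went from −0.08 to 0.06 without passage 24, and Sqstm1 from −0.12 to 0.05 without passage 26. The calls sit close to the threshold, at adjusted p between 0.0313 and 0.0486, and there are 3 pairs, so that a member that did not pass is not shown to be unchanged.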
